A study of Vigna radiata with 9 samples.

Results

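The SULFUR DEFICIENCY-INDUCED 1 (SDI1) pair of mung bean consists of the genes LOC106752419 and LOC106752420, the 2 genes of 26966 in the count file whose product is described as Protein SULFUR DEFICIENCY-INDUCED 1. Both were selected on their levels in these libraries, since they were already known to be low after cold, so their levels and fold changes are given as a description with no test. Leaf RNA of the variety Lvfeng No. 2 was sequenced in 3 groups of 3 libraries, each library from its own pot. LT+S plants were sprayed at the start of flowering with 50 mg/L uniconazole (a triazole growth retardant, S3307), and LT plants with distilled water. After 36 h both groups were moved to a phytotron at 15 °C for 4 days. CK plants were sprayed with water too and stayed in the natural environment, so that LT+S and LT differ from CK in place as well as in temperature, and these cannot be told apart. No library of plants given uniconazole without cold was analysed here. Library totals ran from 19561896 to 21617340 reads.

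SDI1 encodes a tetratricopeptide-repeat protein that is known in Arabidopsis as one of the most sensitive transcript markers of sulfur shortage. There its transcript accumulates when sulfate is withheld or when O-acetylserine, the carbon backbone of cysteine, builds up, and the protein represses MYB28, a transcription factor that drives the synthesis of aliphatic glucosinolates. Glucosinolates are sulfur-rich defence compounds of the cabbage order, which mung bean does not belong to, and the role of SDI1 in mung bean is therefore not known from that work. Sulfate taken up by transporters is activated by ATP sulfurylase, reduced by 5'-adenylylsulfate reductase and sulfite reductase, and joined to O-acetylserine to give cysteine, from which methionine and glutathione are made.

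The 2 genes are next to each other in the RefSeq gene table of the Vradiata_ver6 assembly, on sequence not placed on a chromosome. LOC106752420 spans positions 119280 to 121821 and LOC106752419 spans 151795 to 155897, with 29973 bases between them, and the table lists no gene in between. The table does not name the unplaced sequence, so that they share one was read from the order of entries alone. Both carry the same 4 gene ontology terms. Of these, regulation of sulfur utilization, cellular response to sulfur starvation and nuclear transcriptional repressor complex were given to these 2 genes and no other gene of the file. Regulation of glucosinolate biosynthetic process was given to 14 genes. Reads were counted with htseq-count, whose settings for reads that fit several genes and for strand are not stated. Reads could be divided between the 2 genes if their sequences are alike, which was not analysed here. The sum of the pair is therefore given beside each gene.

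LOC106752419 was low in all 6 libraries from the cold and high in CK. Its level, in CPM (reads per 1000000 reads) after TMM scaling (a trimmed-mean correction for differences in library composition), was 4.36, 3.16 and 2.68 CPM in LT+S libraries 1 to 3, 2.61, 4.24 and 4.36 CPM in LT libraries 1 to 3, and 69.6, 54.9 and 52.8 CPM in CK libraries 1 to 3. The raw counts behind these levels were 102, 75 and 64 reads in LT+S, 62, 93 and 107 reads in LT, and 1199, 922 and 806 reads in CK. Means were 3.40 ± 0.866 CPM in LT+S, 3.73 ± 0.979 CPM in LT and 59.1 ± 9.18 CPM in CK (SD, n = 3 each). LT+S and LT overlapped, and both lay far below CK: the lowest CK library had 12.1 times the level of the highest LT+S library, and 12.1 times that of the highest LT library.

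LOC106752420 was also low in all 6 libraries from the cold and high in CK, with a wider spread in LT and CK. It had 2.65, 3.16 and 4.18 CPM in LT+S, 2.73, 1.55 and 4.48 CPM in LT, and 53.0, 64.6 and 92.4 CPM in CK, from 62, 75 and 100 reads in LT+S, 65, 34 and 110 reads in LT, and 913, 1086 and 1411 reads in CK. Its means were 3.33 ± 0.781 CPM in LT+S, 2.92 ± 1.48 CPM in LT and 70.0 ± 20.2 CPM in CK (SD, n = 3 each). The highest LT library had 2.89 times the level of the lowest, which is the widest range of either gene in any group, and LT+S again overlapped LT. The lowest CK library was 12.7 times above the highest LT+S library and 11.8 times above the highest LT library.

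**Figure D1:**
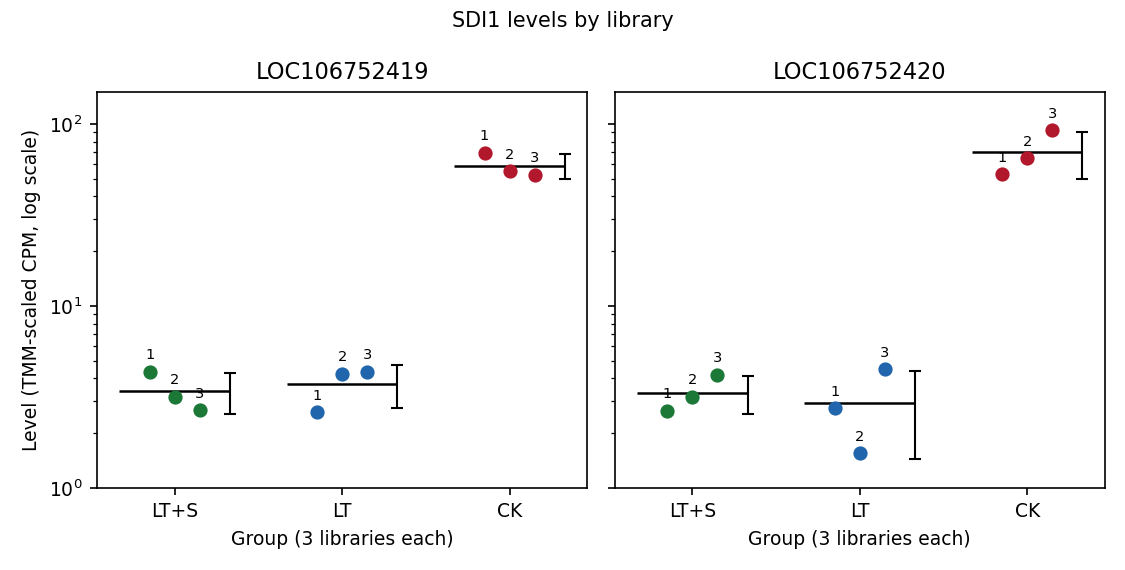
Levels of LOC106752419 (left) and LOC106752420 (right) in CPM after TMM scaling, on a log axis, in the 3 libraries of each group, numbered by library. Horizontal lines are means and bars are SD (n = 3). All LT+S and LT libraries lie between 1.55 and 4.48 CPM and overlap each other, and all CK libraries lie between 52.8 and 92.4 CPM.

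Fitted over all 19304 genes tested, the log2 fold change of LOC106752419 was -4.12 (SE 0.256) in LT+S against CK and -3.98 (SE 0.254) in LT against CK. For LOC106752420 it was -4.39 (SE 0.383) in LT+S against CK and -4.57 (SE 0.387) in LT against CK. These correspond to levels 17.4 and 15.8 times lower for the first gene, and 21.0 and 23.8 times lower for the second. Ordered from the lowest fold change, the genes stood at ranks 74 and 53 in LT+S against CK and at ranks 101 and 54 in LT against CK. Groups that do not overlap were common in these data: every LT+S library was lower than every CK library in 27.4% of the genes tested, and every LT library in 27.0%. In bulk leaf RNA, less transcript per cell cannot be told apart from fewer cells that make it.

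The scaling of the libraries sets part of these values. TMM factors were 0.781 to 0.804 in CK and 1.05 to 1.17 in LT+S and LT, and with plain library totals the median log2 fold change of all genes was 0.50 in LT+S against CK and 0.52 in LT against CK, where it was 0.01 in both with TMM. Under plain totals the fold changes of LOC106752419 were -3.63 and -3.48, and those of LOC106752420 were -3.89 and -4.05, in LT+S and in LT against CK. Relative to the median of all genes the fall of both genes was thus nearly the same under either scaling.

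Uniconazole under cold left both genes within the spread of their libraries. The log2 fold change of LT+S against LT was -0.13 (SE 0.246) for LOC106752419 and 0.18 (SE 0.371) for LOC106752420, of opposite sign and each smaller than its error. Summed over the pair, LT+S had 7.01, 6.32 and 6.86 CPM and LT had 5.34, 5.78 and 8.84 CPM, against 122.6, 119.5 and 145.2 CPM in CK. The sum was 5.21% of the CK mean in LT+S and 5.15% in LT. Of all genes tested, 0.0104% were called higher and 0.00518% were called lower in LT+S than in LT by edgeR's quasi-likelihood test at an adjusted p below 0.05 (2 and 1 genes), while DESeq2's Wald test called 120 higher and 102 lower.

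Within a group the 2 genes did not follow each other. Over the 9 libraries their log2 levels had a Pearson correlation of 0.958, which rests on the difference between CK and the cold groups, while their deviations from the group means had a correlation of -0.339 (9 libraries that share their scaling, given as a description). LOC106752419 took 62.2%, 50% and 39.0% of the reads of the pair in LT+S libraries 1 to 3, and 48.8%, 73.2% and 49.3% in LT libraries 1 to 3. In CK libraries 1 to 3 its share was 56.8%, 45.9% and 36.4%. The exact (Clopper-Pearson) 95% binomial intervals of the 3 CK shares, 54.6% to 58.9%, 43.7% to 48.1% and 34.3% to 38.4%, did not overlap each other, and that of LT library 2, 64.6% to 80.7%, lay above those of the other LT libraries, 39.9% to 57.8% and 42.5% to 56.2%. These intervals cover counting error only. In LT+S the intervals of libraries 1 and 3, 54.3% to 69.6% and 31.5% to 46.9%, were apart as well. No group stood above another in this share, so the division of reads differed between pots of 1 group and not visibly between groups.

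**Figure D2:**
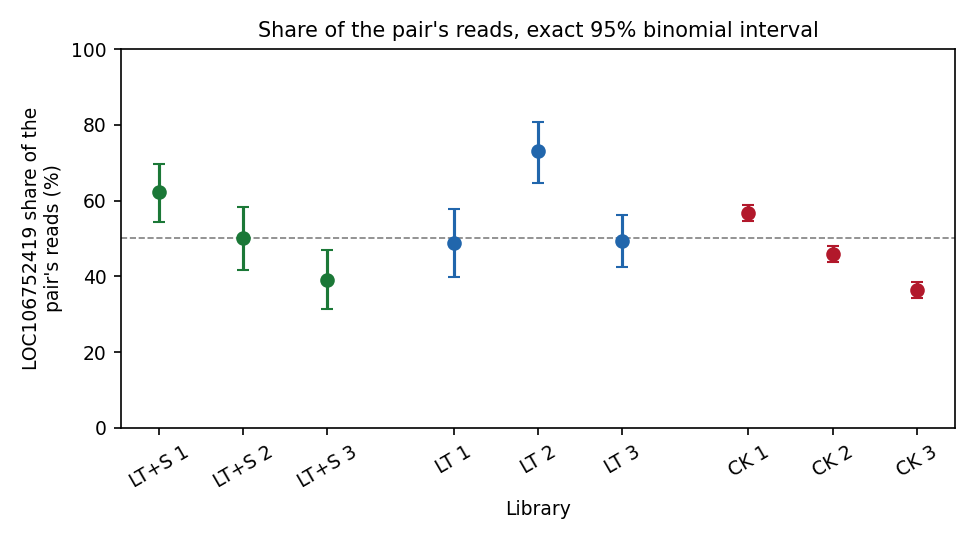
Share of the pair's reads that fell to LOC106752419 (percent) in each library, with exact 95% binomial intervals; the dashed line marks equal shares. The share runs from 36.4% in CK library 3 to 73.2% in LT library 2, and the groups overlap.

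Other values also differed among the CK libraries. The summed level of 38 vascular genes, 25 of them tested, was 229, 450 and 653 CPM in CK libraries 1 to 3, against 410, 387 and 380 CPM in LT+S and 474, 633 and 351 CPM in LT, and 14 of the 38 were at 0 in CK library 1, against 8 to 11 in every other library. CK library 1 was thus low in vascular transcripts and highest in LOC106752419, and CK library 3 was high in vascular transcripts and highest in LOC106752420. LT library 2 went the other way, with the highest vascular sum of the LT libraries and the lowest level of LOC106752420. The part of tissue makeup in the shares was not tested.

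None of the genes around the pair fell as far as it did, but only the pair was chosen for its fall. On the side of LOC106752420 the nearest gene, LOC106752416, with no described product, had a log2 fold change of 0.14 (SE 0.13, adjusted p = 0.422) in LT+S against CK and 0.01 (SE 0.13, adjusted p = 0.959) in LT against CK. The next, LOC106752415, a subunit of the enzyme that starts glycosylphosphatidylinositol anchors, fell, with log2 fold changes of -1.34 in LT+S (adjusted p = 0.00174) and -1.04 in LT (adjusted p = 0.00473). On the side of LOC106752419, LOC106752422 (VAMP725, a vesicle fusion protein) had 0.16 and 0.39 (adjusted p = 0.41 and 0.0512). Its neighbour LOC106752421 (VAMP721) fell, with -1.37 and -1.02 (adjusted p = 0.0144 and 0.0401). LOC106752423, with no described product, fell in LT with -1.02 (adjusted p = 0.0086) and had -0.61 in LT+S (adjusted p = 0.0718). The next entry beyond LOC106752415 is a pseudogene, LOC106752414, not in the count file.

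Genes of sulfur metabolism were then read beside the pair, in 7 lists matched to the product descriptions, which together hold 96 genes besides SDI1. Of the 72 that were tested, LT+S had 15 higher and 26 lower against CK, and LT had 15 higher and 27 lower, by edgeR's quasi-likelihood test with Benjamini-Hochberg adjustment over all genes. The background over all genes was 19.7% higher and 21.9% lower in LT+S, and 22.8% higher and 23.7% lower in LT. With plain library totals the counts turned to 26 higher and 13 lower in LT+S and 24 higher and 16 lower in LT, against 46.5% higher and 10.3% lower of all genes in LT+S and 48% higher and 12% lower in LT, since plain totals move all genes by about the same amount. Without CK library 2 the higher genes were 9 in LT+S and 7 in LT, and without LT library 3 they were 9 in LT. The median log2 fold change of the 72 genes was -0.08 in LT+S against CK and -0.16 in LT against CK, against 0.01 over all genes in both. No listed gene fell as far as either SDI1 gene: the lowest log2 fold changes were -3.01 in LT+S (LOC106760885) and -3.20 in LT (LOC106779085). The SDI1 genes were chosen for their fall and the listed genes were not, so this contrast is not a result.

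**Figure D3:**
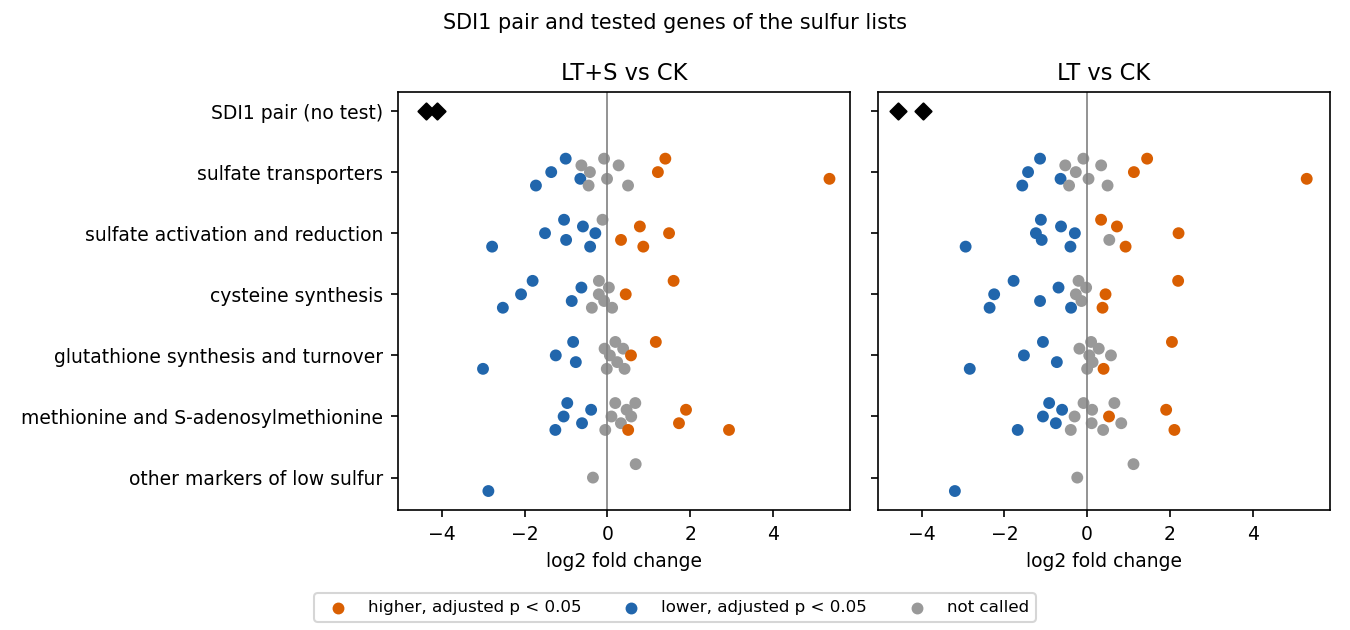
Log2 fold changes of LT+S against CK (left) and LT against CK (right). Black diamonds are the 2 SDI1 genes, shown without a test, and each dot is a tested gene of a sulfur list, coloured by its call; the seed protein list, with 1 tested gene, is not drawn. The SDI1 genes, chosen for their fall, lie at -4.57 to -3.98, below every listed gene, and the lists hold genes of both directions.

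Of the 2 genes described as RESPONSE TO LOW SULFUR 3, known as a marker of sulfur shortage in Arabidopsis, 1 fell in the cold. LOC106779085, a RESPONSE TO LOW SULFUR 3 (LSU3) gene for a small protein that binds enzymes of sulfur metabolism, had 14.1, 19.6 and 23.8 CPM in LT+S and 10.5, 22.5 and 13.1 CPM in LT, against 108, 136 and 179 CPM in CK. Its log2 fold change was -2.88 (SE 0.328, adjusted p = 2.9e-04) in LT+S and -3.20 (SE 0.333, adjusted p = 1.5e-04) in LT. The other LSU3 gene, LOC106764424, stood at 1.14 to 3.51 CPM in LT+S and 1.87 to 3.49 CPM in LT, against 0.72 to 1.74 CPM in CK, and passed the test in neither comparison (adjusted p = 0.297 and 0.0899).

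In Arabidopsis SDI1, LSU genes, APR3, the serine hydroxymethyltransferase SHM7 and a gamma-glutamylcyclotransferase form a group of transcripts that rise with O-acetylserine. The mung bean genes described by these names were collected after their values had been seen, with APR1 beside APR3. They get no test as a group: 4 of 8 were lower and none was higher in each comparison with CK. For scale, edgeR called 21.9% of the 19304 tested genes lower and 19.7% higher when LT+S was set against CK. With LT set against CK, the shares came to 23.7% and 22.8%. Besides LOC106779085 the lower genes were LOC106775990 (APR1, the reductase that makes sulfite), LOC106760885 (gamma-glutamylcyclotransferase 2-2, which breaks down glutathione) and LOC106759830 (SHM7). APR3, the reductase named in the Arabidopsis group, was not among them. APR1 had 430, 361 and 437 CPM in LT+S and 185, 579 and 340 CPM in LT, against 2713, 2823 and 2948 CPM in CK. LOC106760885 had 20.7, 20.6 and 20.7 CPM in LT+S and 20.5, 20.9 and 28.2 CPM in LT, against 118, 158 and 223 CPM in CK. SHM7 LOC106759830 had 23.6, 13.9 and 16.6 CPM in LT+S and 13.7, 20.5 and 17.3 CPM in LT, against 122, 130 and 132 CPM in CK. LT+S and LT overlapped in all 3 genes and CK lay above both, as for the SDI1 genes.

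The fall of these 3 genes was of like size. In LT+S against CK the log2 fold changes were -2.79 (SE 0.366, adjusted p = 5.6e-04) for APR1, -3.01 (SE 0.236, adjusted p = 6.5e-05) for LOC106760885 and -2.83 (SE 0.216, adjusted p = 6.1e-05) for SHM7. In LT against CK they were -2.94 (adjusted p = 3.3e-04), -2.84 (adjusted p = 6.1e-05) and -2.90 (adjusted p = 4.6e-05). Their partners did not pass the test: APR3 (LOC106766568) had log2 fold changes of -0.12 (SE 0.481) and 0.54 (SE 0.476), gamma-glutamylcyclotransferase 2-3 (LOC106764169) had 0.38 (SE 0.282) and 0.10 (SE 0.283), and the second SHM7 gene (LOC106775890) had -0.26 (SE 0.139) and -0.10 (SE 0.139) in LT+S and in LT against CK (adjusted p = 0.863 and 0.384, 0.311 and 0.804, 0.166 and 0.584). Both SDI1 genes were low in the cold, but they were chosen for that. The other pairs were put together after their values were seen, so the contrast with SDI1 is not a result.

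**Figure D4:**
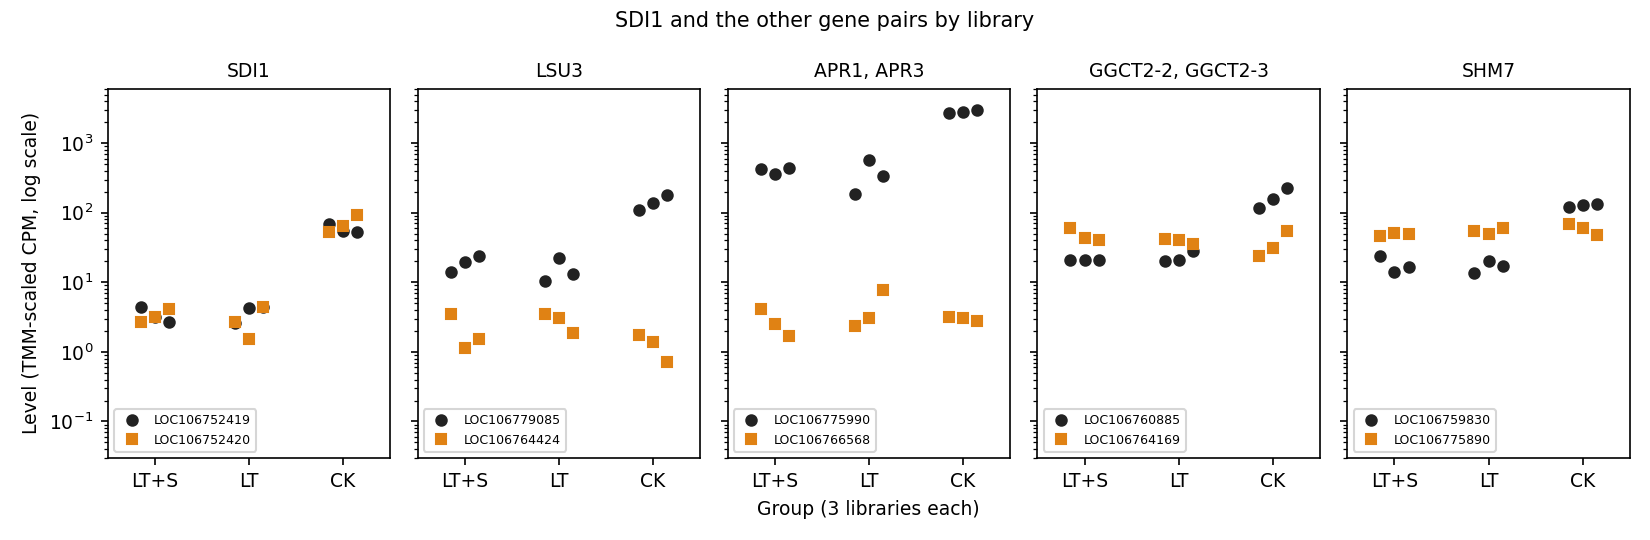
Levels in CPM after TMM scaling, on a log axis, of the SDI1 pair and of 4 other gene pairs, each point a library (n = 3 a group). The 4 pairs are described by names of sulfur-shortage markers, with APR1 set beside APR3. Both SDI1 genes, chosen for it, are lower in LT+S and LT than in CK. In each other pair the gene drawn as a circle is lower than in CK, and the one drawn as a square was not called. The squares LOC106764424 and APR3 reach no more than 3.51 and 7.78 CPM in any library. Levels are not compared between genes, since their coding lengths are not known here.

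Of 14 sulfate transporter genes tested (16 listed), 3 were higher (21.4%) and 4 lower (28.6%) in either cold group when set against CK. The background was 19.7% to 22.8% higher and 21.9% to 23.7% lower. Medians were -0.25 in LT+S and -0.18 in LT on the log2 scale. With plain totals 4 were higher and 2 lower in each, beside 46.5% to 48% higher and 10.3% to 12% lower of all genes. The 2 genes described as sulfate transporter 1.3, a phloem transporter in Arabidopsis, went opposite ways. LOC106762234 fell to 24.3 ± 5.02 CPM in LT+S and 23.2 ± 6.08 CPM in LT, against 62.7 ± 2.02 CPM in CK (adjusted p = 9.1e-04 and 5.8e-04), and LOC106765277 rose to 35.6 ± 9.20 CPM in LT+S and 33.4 ± 11 CPM in LT, against 15.3 ± 1.24 CPM in CK (SD, n = 3 each; adjusted p = 0.00575 and 0.00717). Sulfate transporter 3.1, a plastid transporter, showed the same split: LOC106757698 fell to 330 ± 41.9 CPM in LT+S and 367 ± 136 CPM in LT, against 1092 ± 34.4 CPM in CK (adjusted p = 7.9e-04 and 9.9e-04). LOC106769776 had 1.09 to 9.45 CPM in LT+S and 1.5 to 9.21 CPM in LT, against 0.0581 to 0.131 CPM in CK (adjusted p = 0.00786 and 0.00723).

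Genes of sulfate activation and reduction were more often lower than higher under TMM scaling. Of 12 genes, all tested, 7 were lower (58.3%) and 4 higher (33.3%) in each comparison with CK (medians -0.36 in LT+S and -0.35 in LT). The background over all genes was 21.9% lower and 19.7% higher in LT+S, and 23.7% and 22.8% in LT. With plain totals 3 and 4 were lower and 4 higher. Of all genes, plain totals gave 10.3% lower and 46.5% higher in LT+S, and 12% and 48% in LT. ATP sulfurylase 1 (LOC106772622), the activating enzyme, fell to 321 ± 89.4 CPM in LT+S and 428 ± 101 CPM in LT, against 914 ± 40.3 CPM in CK (SD, n = 3 each; adjusted p = 0.00118 and 0.00458). Sulfite reductase (LOC106756296) fell to 129 ± 8.72 CPM in LT+S and 123 ± 3.64 CPM in LT, against 267 ± 46.6 CPM in CK (adjusted p = 6.1e-04 and 3.4e-04). Higher were 2 of 3 genes for adenylyl-sulfate kinase, which diverts activated sulfate from reduction to sulfation: LOC106769169 with log2 fold changes of 0.87 (adjusted p = 0.00142) in LT+S and 0.72 (adjusted p = 0.00299) in LT, and LOC106777070 with 1.49 (adjusted p = 0.00653) and 2.21 (adjusted p = 8.1e-04). The third, LOC106753968, was lower, with -0.42 (adjusted p = 0.029) and -0.41 (adjusted p = 0.0299). The other 2 higher genes, LOC106753797 and LOC106774515, are described as reductase-like 5, relatives not known to reduce sulfate. A relative of the same kind is among the lower genes: reductase-like 4 (LOC106762668), with -0.29 in LT+S (adjusted p = 0.0483) and -0.30 in LT (adjusted p = 0.0416). So is sulfite oxidase (LOC106772593), with -0.59 (adjusted p = 0.00723) and -0.63 (adjusted p = 0.00457).

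In cysteine synthesis 13 of 14 listed genes were tested. Against CK, LT+S had 5 lower (38.5%) and 2 higher (15.4%), beside 21.9% and 19.7% of all genes. LT had 6 lower (46.2%) and 3 higher (23.1%), beside 23.7% and 22.8% of all genes. Medians were -0.21 and -0.27. With plain totals 3 and 4 were lower and 4 higher, beside 10.3% and 12% lower and 46.5% and 48% higher of all genes. Serine acetyltransferase makes O-acetylserine. Its gene LOC106773178 (serine acetyltransferase 5) fell to 22.4 ± 1.87 CPM in LT+S and 22.9 ± 3.92 CPM in LT, against 78.7 ± 7.78 CPM in CK (adjusted p = 7.3e-05 and 5.9e-05), while LOC106763905 (serine acetyltransferase 3, mitochondrial) rose to 9.34 ± 1.12 CPM in LT+S and 14.1 ± 4.90 CPM in LT, against 3.07 ± 0.411 CPM in CK (SD, n = 3 each; adjusted p = 0.0013 and 2.3e-04). Cysteine synthase LOC106780182 fell, with log2 fold changes of -2.53 in LT+S and -2.25 in LT (adjusted p = 3.3e-05 and 3.5e-05). Cysteine synthase D1, LOC106772637, which also makes cyanoalanine, fell, with -2.09 and -2.36 (adjusted p = 0.00119 and 5.5e-04).

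Glutathione and methionine genes showed no common direction. Among 13 tested glutathione genes (17 listed) 2 were higher (15.4%) and 4 lower (30.8%) in each comparison with CK (medians 0.06 in LT+S and 0.05 in LT). Over all genes 19.7% were higher and 21.9% lower in LT+S, and 22.8% and 23.7% in LT. With plain totals 7 and 5 were higher and 3 and 2 lower, beside 46.5% and 48% higher and 10.3% and 12% lower of all genes. Glutathione hydrolase 3 (LOC106775372), which splits glutathione, had 27.4, 29.0 and 28.9 CPM in LT+S, 54.2, 46.0 and 56.6 CPM in LT and 11.6, 12.2 and 14.2 CPM in CK. It rose against CK by 1.17 in LT+S (adjusted p = 1.8e-04) and by 2.05 in LT (adjusted p = 2.4e-05) on the log2 scale. Of 16 tested methionine and S-adenosylmethionine genes (19 listed) 4 were higher (25%) and 5 lower (31.2%) in LT+S (median 0.26). In LT 3 were higher (18.8%) and 5 lower (31.2%), with a median of 0.01. With plain totals 7 and 6 were higher and 1 and 3 lower. The shares over all genes are those given above for the glutathione genes. Methionine gamma-lyase, which breaks methionine down, was split: LOC106769753 had 2.94 (adjusted p = 0.00439) and 1.91 (adjusted p = 0.0248), and LOC106775326 had -1.26 (adjusted p = 0.0248) and -1.68 (adjusted p = 0.00657). The call of LOC106769753 in LT was lost without CK library 2 or 3 or LT library 1 or 3 (adjusted p = 0.0568 to 0.0781), and that of LOC106775326 in LT+S without CK library 2 or 3 or LT+S library 2 or 3 (adjusted p = 0.0562 to 0.086), with the replicate number as a block (adjusted p = 0.0607) and with plain totals (adjusted p = 0.101). The gene described as ETHYLENE INSENSITIVE 3-like 3 (LOC106759455), the counterpart of SLIM1, which controls the sulfur response in Arabidopsis, had 73.4 ± 11.4 CPM in LT+S, 79.3 ± 8.58 CPM in LT and 93.6 ± 9.98 CPM in CK (SD, n = 3 each) and passed in neither comparison (adjusted p = 0.0797 and 0.201). Seed storage proteins, which SDI1 affects in Arabidopsis, were almost unread in these leaves: 1 of 15 listed genes was tested, and it was not called.

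None of the 72 sulfur genes was called between LT+S and LT by edgeR's quasi-likelihood test, 3 had an unadjusted p below 0.05, and DESeq2 called 1, lower in LT+S. That gene was glutathione hydrolase 3, with a log2 fold change of -0.88 (SE 0.116, adjusted p = 0.0691) by edgeR and -0.89 (adjusted p = 3.4e-08) by DESeq2.

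Likeness to the pair was measured as the Pearson correlation of each gene's log2 CPM with the mean of the 2 SDI1 genes over the 9 libraries, among 14484 described genes with a mean of at least 1 CPM. It is a description: 755 genes had a correlation above 0.95 and 589 below -0.95, and the measure is set mostly by the step between CK and both cold groups. The most alike were a pentatricopeptide repeat gene (LOC106767674, 0.995), fructokinase-like 1 (LOC106773164, 0.993), RETICULATA-RELATED 5 (LOC106776079, 0.993), methionine aminopeptidase 1B (LOC106777741, 0.993), the translocase subunit TATA (LOC106775252, 0.992) and methionine aminopeptidase 1D (LOC106777891, 0.992). Their levels fell far less than those of SDI1, with log2 fold changes of -1.84 to -1.04 in LT+S and -1.84 to -1.12 in LT. That all 6 passed the threshold follows from choosing them by likeness to the pair over these same libraries. The most opposite were alpha-glucan phosphorylase H (LOC106775971, -0.997), LOC106775206 (described as uncharacterized, -0.996) and oligopeptide transporter 5 (LOC106757696, -0.996). The phosphorylase, which breaks down glucans, had 911, 715 and 688 CPM in LT+S and 966, 985 and 728 CPM in LT, against 40.1, 40.5 and 37.9 CPM in CK.

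**Figure D5:**
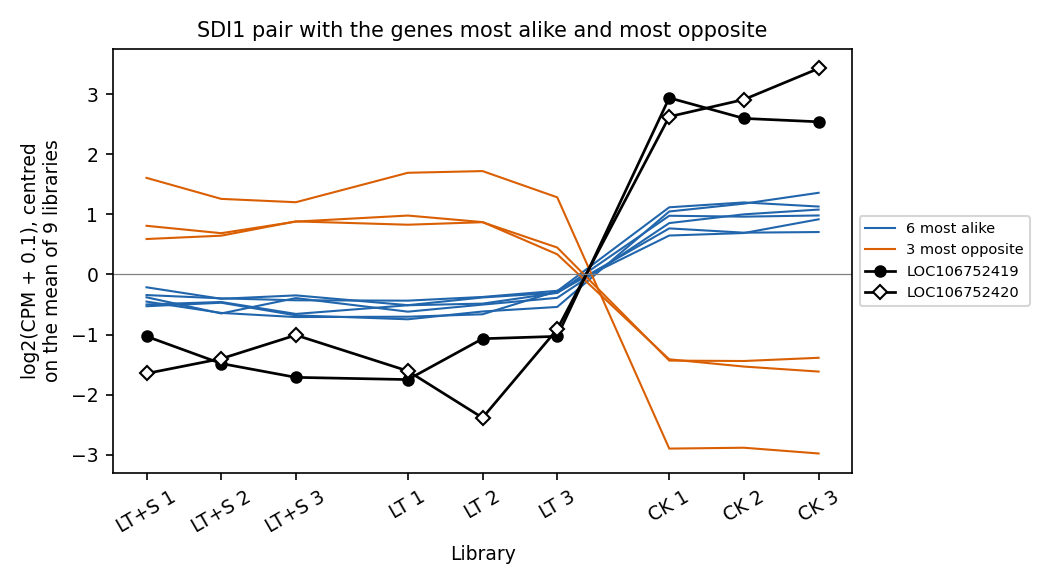
Log2(CPM + 0.1), centred on each gene's mean of 9 libraries, for the SDI1 pair (black), the 6 most alike genes (blue) and the 3 most opposite genes (orange). The alike genes vary less within LT+S and LT than either SDI1 gene does, and have a smaller step to CK. CK library 1 is the highest for LOC106752419 and the lowest CK library for LOC106752420.

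Of the sulfur markers, LOC106760885 was the nearest to the pair at 0.989, the 16th most alike described gene, followed by SHM7 LOC106759830 at 0.983, while the sulfate transporter LOC106762234 had 0.969, LSU3 LOC106779085 0.958 and APR1 0.955. In deviations from the group means, LOC106760885 had correlations of -0.0905 with LOC106752419 and 0.715 with LOC106752420. In the same order SHM7 had 0.703 and -0.332, and the sulfate transporter 0.176 and 0.63. LSU3 had -0.103 and -0.0467, and APR1 0.581 and -0.354. By deviations from the group means the most alike genes were 3-ketoacyl-CoA synthase 11 (LOC106756415, 0.994), chalcone-flavonone isomerase 3 (LOC106761096, 0.992) and cytochrome P450 82A3 (LOC106773401, 0.985). All 3 were highest in LT library 3, with 39.2, 156 and 214 CPM, which is also the LT library with the highest sum of the pair. LT library 3 was lowest of all in leaf mesophyll genes. Their part in these likenesses was not tested.

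The leaf identity of the libraries was checked. The summed level of 24 mesophyll genes (Rubisco, its activase and antenna proteins among them) was 32503 to 42085 CPM in LT+S and 20449 to 44936 CPM in LT, against 129370 to 159609 CPM in CK, and 22 of the 24 were lower in each comparison with CK. That fall moves with the SDI1 fall across the groups, and its part in it was not tested. Vascular genes passed as higher in 3 and lower in 4 of 25 in LT+S and as higher in 3 and lower in 1 in LT. The background over all genes was 19.7% higher and 21.9% lower in LT+S, and 22.8% and 23.7% in LT. Of 20 root and nodule genes 6 were tested, with 1 higher and 1 lower in LT+S and 2 higher and 1 lower in LT, and of 12 floral and pollen genes 5 were tested, with 1 higher in each. Among defining markers of nodules, Leghemoglobin A and 1 of 3 Leghemoglobin-2 genes were at 0 in all 9 libraries, and the Leghemoglobin-2 gene LOC106771163 had 17, 4 and 21 reads in LT+S and 11, 13 and 4 reads in LT, against 1, 0 and 0 reads in CK (higher in both, adjusted p = 0.0121 and 0.0228). Floral markers were low but not absent: AGAMOUS LOC106775325 had 0.759 to 1.41 CPM in LT+S and 1.98 to 3.95 CPM in LT, against 0.72 to 3.77 CPM in CK, APETALA 1 LOC106778788 had 29 to 38 reads in LT+S and 26 to 64 in LT, against 11 to 25 in CK, and the 2 SEPALLATA 1 genes had 0 or 1 read in each library.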

How the data were processed

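RNA-seq was done on 9 mung bean leaf libraries. The authors trimmed reads (Trimmomatic), aligned them to Vradiata_ver6 (HISAT2) and counted them per gene (htseq-count), and the deposited values are raw counts with no normalization; CASAVA 1.8 and Cufflinks are also named in the submitters' processing notes. Strand and multi-mapped reads are not described in the sources used here. Counts were analysed with edgeR 4.0.16 (R 4.3.3): filterByExpr left 19304 genes, libraries were TMM-scaled, the 3 groups were fitted together (glmQLFit, glmQLFTest) and p values adjusted by Benjamini-Hochberg over all genes; called means an adjusted p below 0.05. SE is the log2 fold change divided by the root of F. Levels are TMM-scaled CPM without a pseudocount, and likeness was taken on log2 CPM (prior count 2). DESeq2 1.42.0 was an alternative, as were its size factors, plain totals, other filters, fits of 2 groups, the replicate number as a block and each library left out. P values set the difference between groups against the spread between pots of a group, and do not separate cold from place. Positions came from RefSeq, which held 26961 of the identifiers.

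The 2 genes and all lists were chosen with earlier results of these data known. Named by rule were genes described as SULFUR DEFICIENCY-INDUCED or RESPONSE TO LOW SULFUR, 3 neighbours on each side, up to 4 genes of smallest p per sulfur list and comparison, and the 6 most alike, 3 most opposite and 3 most alike in deviations; the text gives the more informative of these. Chosen after their values were seen were SHM7, APR3, gamma-glutamylcyclotransferase 2-3, the reductase-like genes, sulfite oxidase and the genes under other observations. Protein and promoter comparisons planned for the pair were not analysed here. Labels of the LT+S libraries give S3305, S3306 and S3307, which were taken as 1 treatment.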

Additional observations from a re-analysis of the deposited data

How the results depend on the processing

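Groups of 3 allow no outlier test. Both SDI1 genes kept their direction against CK under every alternative run. Leaving out 1 library, their log2 fold changes ran from -4.34 to -3.97 (LOC106752419) and -4.59 to -4.14 (LOC106752420) in LT+S against CK, and from -4.11 to -3.78 and -5.02 to -4.27 in LT against CK. In LT+S against LT they ran from -0.35 to 0.01 and from -0.12 to 0.63, on both sides of 0.

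Plain library totals, added after seeing the data, moved them to -3.63 (LOC106752419, LT+S), -3.48 and -4.05 (both, LT) and moved the mean of LOC106752419 in CK to 46.9 CPM. They gave 8979 higher and 1997 lower genes in LT+S against CK and 9275 and 2314 in LT against CK (3811 and 4231, 4394 and 4574 with TMM), and 26 and 13, and 24 and 16, sulfur genes. In LT+S against LT, where 2 genes were higher and 1 lower, DESeq2's Wald test called 120 and 102 (1 sulfur gene lower), the 6 libraries of both groups alone gave 0 and 0, and leaving out 1 library gave 0 to 4 and 0 to 3 (none without LT library 1, none lower without LT+S library 2 or 3, 4 and 3 without LT library 2 or 3). Leaving out 1 library gave 2587 to 4027 higher and 3299 to 4391 lower genes in LT+S against CK and 3154 to 4334 and 3670 to 4555 in LT against CK. It gave 9 to 16 higher and 19 to 25 lower sulfur genes in LT+S and 7 to 16 and 24 to 26 in LT; the 7 and the 9 came without CK library 2, and 9 in LT also without LT library 3. The causes were not tested.

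The replicate numbers do not pair the libraries: same-numbered libraries had correlations of -0.296 to 0.267, and 2 of 9 were above 0.1. With the replicate block 4 genes were higher and 2 lower in LT+S against LT. Of 72 calls of single sulfur genes against CK that were followed, 53 held in every alternative and 19 were lost in at least 1. Of these, adenosylhomocysteinase (LOC106756231) in LT+S reversed to 0.10 with plain totals, which add about 0.50 to every gene's log2 fold change. By the same shift, genes without a call changed sign: LOC106759455 (0.27 in LT and 0.14 in LT+S), LOC106775890 (0.41 and 0.23) and LOC106766568 (0.37 in LT+S). Without 1 library so did LOC106764169 (-0.136 to 0.50 in LT), LOC106775890 (-0.225 to 0.0164 in LT) and LOC106766568 (-0.167 to 0.839 in LT, -0.529 to 0.146 in LT+S). Cold libraries held 34 to 110 reads of each SDI1 gene, which limits the comparison of LT+S with LT.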

Other observations

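Sulfur genes outside the lists, named after their values were seen, include some that moved against the SDI1 pair. LOC106769795, described as Sulfite exporter TauE/SafE family protein 4, had 600, 655 and 664 CPM in LT+S and 387, 458 and 341 CPM in LT, against 17.2, 33.2 and 48.5 CPM in CK (log2 fold changes of 4.28, adjusted p = 8.1e-05, and 3.58, adjusted p = 1.0e-04). LOC106768973 of the same family had 99.9, 98.3 and 105 CPM in LT+S and 78.8, 108 and 77.5 CPM in LT, against 13, 10.6 and 11.3 CPM in CK (3.12, adjusted p = 2.5e-05, and 2.92, adjusted p = 2.1e-05). Of the 16 genes of that family 9 were tested, 2 were higher in LT+S and 3 in LT than in CK and none was lower, beside 19.7% and 22.8% higher over all genes. The third call in LT (LOC106765347) was lost in several alternatives (adjusted p = 0.0508 to 0.124). S-adenosylmethionine decarboxylase, which commits S-adenosylmethionine to polyamines, had 3 tested genes, 2 of them higher in each comparison. LOC106777763 rose by 1.97 in LT+S (adjusted p = 8.8e-05) and by 1.90 in LT (adjusted p = 7.3e-05) on the log2 scale. The S-sulfocysteine synthase gene LOC106753766, a plastid enzyme that uses thiosulfate, fell, with -1.72 in LT+S (adjusted p = 0.00778) and -2.43 in LT (adjusted p = 0.0014).

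POLLENLESS 3 (LOC106775200) and POLLENLESS 3-LIKE 2 (LOC106766888), relatives of SDI1 in Arabidopsis, were too low to be tested, with 0 to 6 reads in every library.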
